A study of Bos taurus with 47 samples.

Results

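The rumen is described here through its 4 RNA sequencing libraries, chosen by their tissue label out of 47 libraries that carry 15 tissue labels. All animals were Holstein cattle, and neither their age nor any treatment is given in the labels. The rumen libraries came from 2 males and 2 females with 1 library for each animal, so they are separate animals and not repeat runs. The males are called the first and the second male here, and the females the lactating and the dry female after the mammary gland sample each gave. Values in 4 rumen libraries are given in the order first male, second male, lactating female, dry female. The same 4 animals gave 4 libraries each of spleen, lung, muscle, liver, kidney, heart, ileum, adipose tissue and frontal cortex. Ovary and uterus had 2 libraries each, from the females. There was 1 library each of lymphocytes, from a further male, and of the dry and the lactating mammary gland.

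The rumen is the large fermentation chamber of the ruminant stomach. Microbes in it turn plant fibre into short-chain fatty acids, which the wall absorbs and partly converts to ketone bodies. Its lining is a keratinized stratified squamous epithelium raised into papillae, over connective tissue and layers of smooth muscle, so a piece of rumen wall can hold all of these cells. In such bulk tissue, a lower value from fewer cells of a type cannot be told apart from less RNA per cell.

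Values are FPKM, fragments per kilobase of transcript scaled to library size, which account for gene length and can be set side by side between genes. The deposited table lists 24616 gene identifiers without names, and the sources used here pair none of them with a symbol. Genes are therefore described by rank, level and the tissues that share them, and the tissue label could not be checked against known marker genes. The FPKM of the rumen libraries summed to between 810117 and 863417, against 576130 to 964931 over all 47, and their depth in fragments is unknown.

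A few very abundant genes made up much of the rumen transcriptome. The most abundant gene alone took 3.72% of the FPKM in the first male, 4.997% in the second male, 5.38% in the lactating female and 4.92% in the dry female, against a median of 1.91% for the leading gene in the 43 other libraries. The 100 most abundant genes together held 47.8% to 53.9%, against a median of 38.8% elsewhere. Other tissues were as concentrated or more so. In muscle the 100 leading genes held 61.2% to 61.7%, in heart 47.7% to 54.0% and in the lactating mammary gland 84.7%. The leading gene alone held 8.73% to 11.1% in muscle, 3.35% to 6.91% in heart, 4.79% to 5.38% in liver and 16.8% in the lactating gland. In rumen 12020 genes had a mean of 1 FPKM or more, and 11210 reached that level in all 4 libraries. Another 1505 genes reached it in some rumen libraries and not in others. Levels of at least 100 FPKM were found for 899 genes and of at least 1000 FPKM for 123.

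The 20 most abundant genes fell into 2 kinds. For 8 of them, called rumen-enriched here, the rumen mean exceeded that of every other label 4-fold or more. The remaining 12 were abundant in every tissue. The 8 enriched genes, which hold ranks 1, 2, 3, 4, 7, 9, 10 and 20, together held 14.1% ± 2.08 of the FPKM (SD, n = 4).

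The most abundant gene stood at 30133 FPKM in the first male, 40853 in the second male, 46494 in the lactating female and 41481 in the dry female. All 4 values were far above the other 43 libraries, which ran from 0.530 to 747.5 FPKM, and the first male was the lowest of the rumen libraries. Lung, with a mean of 672 FPKM, was the next label. The third most abundant gene had the same pattern, with 12685, 22073, 20330.1 and 15495 FPKM in rumen, lung next at 312 FPKM and heart lowest at 2.31. The twentieth, at 2435, 8392, 5826 and 4841 FPKM, also had lung next (182 FPKM) and heart lowest (1.14).

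The second most abundant gene, ENSBTAG00000006806, was also the one with the largest difference from other tissues. It stood at 16261, 22889, 19966 and 23301 FPKM in rumen. Outside the rumen its highest value was 163.65 FPKM, in the dry mammary gland, and the lymphocyte library had 0.850. The seventh, ENSBTAG00000039425, stood at 7118, 8669, 8986 and 9089 FPKM and never exceeded 5.45 FPKM in the other 43 libraries, 10 of which listed it at 0. The tenth, at 4305, 7782, 8358 and 9224 FPKM, stayed at or under 6.36 FPKM elsewhere. For each of these 3 genes the first male had the lowest rumen value.

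**Figure D1:**
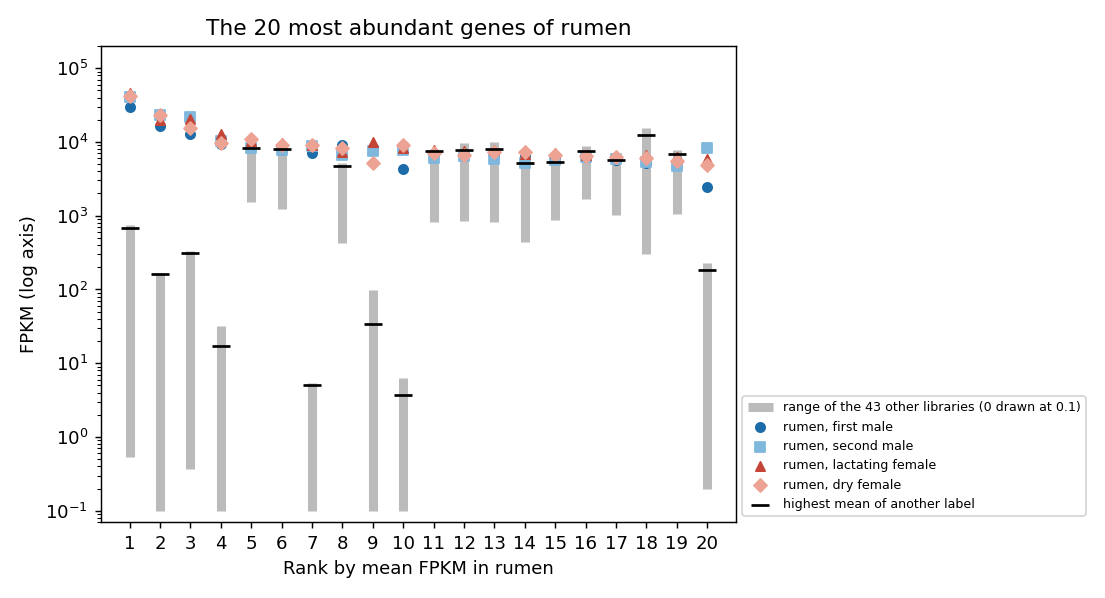
FPKM (log axis) of the 20 genes with the highest rumen mean, by rank, with 1 point for each rumen library, a grey bar for the range of the 43 other libraries and a black dash for the highest mean of another label. For 8 genes the points lie far above the grey bar, and for the other 12 the bar comes close to or passes the points.

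The 12 widely abundant genes had rumen means of 5489 to 9647 FPKM. Uterus was the highest other label for 9 of them, and for 6 the next label lay above rumen. Their differences from the mean of the other labels were 0.79 to 1.87 on the log2(FPKM + 1) scale, under the 4-fold limit used below, so none was called. The largest belonged to the gene of rank 8, with 9037, 6586, 7373 and 8179 FPKM in rumen and at most 5131 in any other library, a difference of 1.87 ± 0.13 (SE, limma adjusted p = 1.68e-15). At the other end, the gene of rank 18 stood at 5167 to 6667 FPKM in rumen and 12224 in uterus.

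Genes that are abundant on average over the other labels stood high in rumen as a group. There were 71 genes with an average of at least 10 on the log2(FPKM + 1) scale over the other 14 labels, a limit chosen after the values were seen. They held 29.9% ± 1.62 of the rumen FPKM (SD, n = 4). Of them, 62 were higher in rumen and 6 lower at a limma adjusted p under 0.05 with no minimum difference, with a median difference of 0.97. All genes tested had a median of -0.24, with 3688 (22.2%) higher and 7742 (46.5%) lower at that p. The median level of the 71 genes was higher in uterus (11.83) than in rumen (11.63), followed by spleen (11.44) and lymphocytes (11.43), and was lowest in frontal cortex (9.36). The 4 rumen libraries stood at 11.64, 11.50, 11.82 and 11.67. The size of this difference depended on scaling, since quantile normalization brought the group median to 0.30, with 38 genes higher and 10 lower, while rescaling to the same sum left it at 0.73, with 60 and 8.

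To find the genes that set rumen apart, limma set its mean against the average over the 14 other labels, each with equal weight, on log2(FPKM + 1), among 16634 genes with at least 1 FPKM in 2 or more libraries. At an adjusted p under 0.05 and a difference of at least 2, or 4-fold, 629 genes (3.78%) were higher and 158 (0.95%) were lower in rumen. The rises were larger than the falls. The median rise was 3.22 and the largest 11.88, while the median fall was -2.26 and the largest -4.01. The measure itself favours this, because a fall cannot exceed the average of the gene over the 14 other labels. A rise has no such bound. After rescaling all libraries to the same sum, 555 genes were higher and 230 lower. There were 209 genes with a rise of at least 4, 91 with at least 6, 37 with at least 8 and 15 with at least 10, whereas 15 genes fell by 3 or more. In 303 of the higher genes (1.82% of those tested) every rumen library lay above all 43 others, and in 19 of the lower genes (0.114%) every rumen library lay below them.

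**Figure D2:**
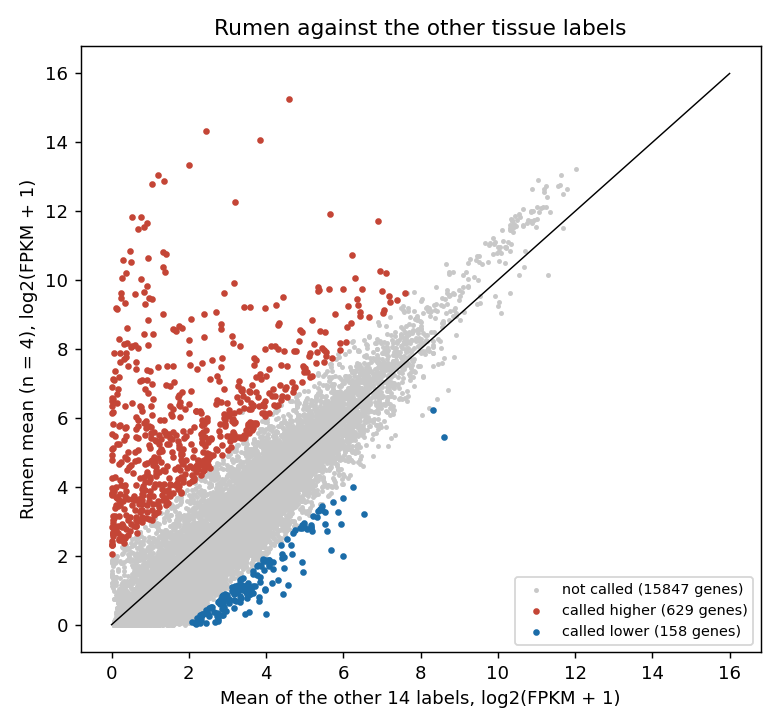
Mean over the 4 rumen libraries against the mean of the other 14 labels, both in log2(FPKM + 1), with 1 point for each of the 16634 genes tested and the line of equal values. The 629 called higher genes reach far from the line at low values elsewhere, the 158 called lower genes stay close to their limit, and most genes at the upper right lie above the line without being called.

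Higher genes were often abundant. Of the 629, 570 had a rumen mean of at least 10 FPKM, 210 of at least 100 FPKM and 31 of at least 1000 FPKM, with a median of 52.5 FPKM. Rumen was the highest label for 417 of them. For the other 212 some other label lay above rumen, most often ileum (37 genes), kidney (33), the dry mammary gland (33) or frontal cortex (25). With a pseudocount of 0.1 in place of 1, which gives low genes more weight, 974 genes were higher and 705 lower.

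The 25 largest rises without overlap had rumen means of 584 to 39740.3 FPKM and differences of 9.05 to 11.88, each with a limma adjusted p of 2.73e-17 or lower. They were chosen by call, size and lack of overlap, so these p-values are no separate support. The genes of rank 23 and 25, at most 0.525 and 0.659 FPKM elsewhere, passed the filter on low values only through rumen. The ratio of the 25 genes to the next label ran from 22.0 to 2557. The next label was the dry mammary gland for 11 of them, lung for 4, the lactating mammary gland for 3, ileum and spleen for 2 each, and adipose tissue, frontal cortex and liver for 1 each. The dry mammary gland has 1 library, and its level for these 11 genes ran from 0.525 to 163.65 FPKM. A place as next label can thus rest on a very low value. The difference of ENSBTAG00000006806 was 11.88 ± 0.50 (SE, limma adjusted p = 1.38e-21) and that of ENSBTAG00000039425 was 11.85 ± 0.39 (limma adjusted p = 4.59e-25). All 4 rumen libraries lay above the others in both, as the choice required.

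Some of the 25 were all but missing elsewhere. The sixth by difference had 3519, 4431, 3521 and 3127 FPKM in rumen and at most 3.097 in any other library. The thirteenth had 1619, 1423, 2038 and 1139 FPKM against at most 1.23. The gene of rank 25 had 632, 632, 589 and 482 FPKM against at most 0.659 and was listed at 0 in 22 of the other 43. That all rumen values of these 3 genes lay above every other library follows from the choice of the 25. Others were shared with 1 further tissue at a low level: the twenty-first had 1432, 1781, 1701 and 2122 FPKM in rumen and 79.9 in the dry mammary gland, and the fourth had 8183, 7565, 9881 and 5170.1 in rumen and 99.7 in the spleen of the second male.

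The low values of rumen genes in other tissues were compared between groups of libraries from different animals. They were followed over 18 rumen-enriched genes that reached 1000 FPKM in rumen and 100 times every other label. In the 30 other libraries of the 2 males and the dry female, these genes stood at 0.00796% to 0.0622% of their rumen level (median over the genes). In 9 of the 13 libraries of the lactating female and of lymphocytes the median was 0. The highest of the 13 was 0.0526%, above the middle value of the 30 libraries (0.0196%), so the groups overlapped. The lymphocytes came from a further animal, and a difference between single animals was not tested. The part of these traces in the low-level sharing between tissues was not tested. Without the lymphocyte library and all libraries of the lactating female, 589 genes were called higher and 252 lower.

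Rumen-enriched genes numbered 203, counted without a test as those at 1 FPKM or more in rumen whose mean there exceeded that of every other label 4-fold or more. They held 17.5% of the FPKM in the first male, 24.1% in the second male, 23.0% in the lactating female and 21.9% in the dry female. In the other 43 libraries the same genes held 0.0313% to 0.413%, the highest of them a lung library. The genes were chosen for their higher means in rumen, so a larger share there follows from the rule. Of the 203, 157 had at least 10 FPKM, 93 at least 100 and 26 at least 1000, and 141 were at least 10 times, 58 at least 100 times and 19 at least 1000 times the next label. These 93 genes are a part of the 899 genes at 100 FPKM or more in rumen, and the 26 a part of the 123 at 1000 or more. The limma call was met by 177 of the 203, and 2 of the other 26 were not tested because a single library reached 1 FPKM. At a limit of 2 times or 10 times every other label in place of 4 there were 314 and 141 genes.

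The next label of the 203 enriched genes was the dry mammary gland for 45, ileum for 39, lung for 23, frontal cortex for 17 and uterus for 12. Muscle (3 genes), heart and lymphocytes (4 each) were rarely next. The next label can stand at a very low level, and for 2 of the 203 genes it was at 0. A further 72 genes were shared by rumen and exactly 1 other label, both at least 4 times above all remaining labels. Of these, 26 were shared with ileum, 12 with frontal cortex, 9 with the dry mammary gland, 8 with kidney, 6 with lung and 5 with liver. None was shared with muscle, uterus or lymphocytes. The labels differ in how many genes they offer. With rumen left out, 989 genes of frontal cortex, 235 of ileum and 72 of the dry mammary gland stood at least 4 times above all remaining labels. The rumen mean was at most 4-fold below the label in 2.02%, 16.2% and 30.6% of them. The most abundant gene shared with lung had a mean of 3387 FPKM in rumen and 1627 in lung, and the one shared with liver had 938 and 578. The leading gene shared with ileum had 547 FPKM in rumen and 370 in ileum, and that shared with kidney had 333 in rumen and 640 in kidney. No test was made of these counts.

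Rumen was next set against each other label singly, in the same fit, at an adjusted p under 0.05 and a difference of at least 1 (2-fold). These 14 comparisons share the rumen libraries. Against ileum, the other sampled part of the digestive tract, 994 genes (5.98%) were higher in rumen and 4447 (26.7%) lower. Against the dry mammary gland 1110 (6.67%) were higher and 3831 (23%) lower. Rumen had more higher than lower genes only against the lactating mammary gland (6254 and 526, or 37.6% and 3.16%), muscle (5029 and 1253, or 30.2% and 7.53%), liver (3763 and 1767, or 22.6% and 10.6%) and heart (3191 and 1950, or 19.2% and 11.7%). The largest number of lower genes was found against frontal cortex, with 4678 (28.1%) beside 2455 (14.8%) higher. Against lymphocytes 2893 (17.4%) were higher and 4555 (27.4%) lower, and against lung 1433 (8.61%) and 4464 (26.8%). Against spleen there were 1779 (10.7%) higher and 4063 (24.4%) lower genes, and against kidney 1684 (10.1%) and 3407 (20.5%). The counts for uterus were 1710 (10.3%) and 3263 (19.6%), for ovary 1383 (8.31%) and 3086 (18.6%), and for adipose tissue 1641 (9.87%) and 2877 (17.3%). Since FPKM are scaled to library size, a few very abundant genes can lower the values of all others in a library. The 10 most abundant genes held 75.6% of the FPKM in the lactating mammary gland. Medians were 33.9% in muscle, 22.8% in heart, 17.9% in liver and 17.4% in rumen. In every other label the median was 11.6% or less. The part of this concentration in the counts was not tested. The 2 mammary labels and lymphocytes have 1 library each, which is assumed to vary like the rest.

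**Figure D3:**
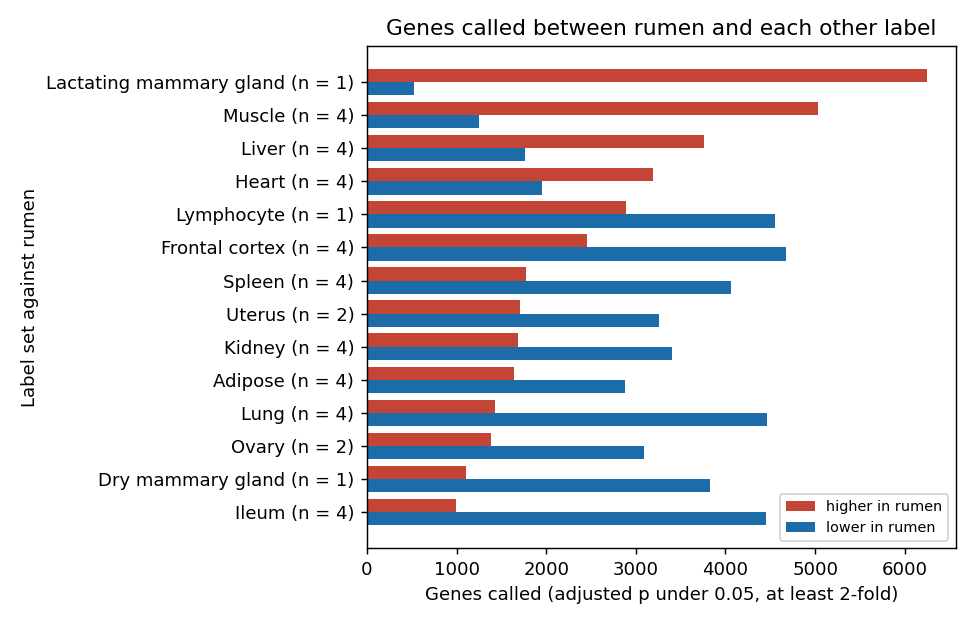
Number of genes called higher (red) and lower (blue) in rumen against each other label at an adjusted p under 0.05 and at least 2-fold, with the number of libraries of that label in brackets. Only the 4 uppermost labels, from the lactating mammary gland with 6254 and 526 genes to heart with 3191 and 1950, have more genes higher than lower in rumen.

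In these single comparisons 289 genes (1.74%) were higher in rumen than in each of the 14 labels, and 3 genes (0.018%) were lower than in each. Of the 629 genes called against the mean, 262 were higher than all 14 labels and 425 higher than at least 13. The label that most often broke the pattern was ileum, which 122 of the 629 genes did not exceed by the call, followed by the dry mammary gland (119) and kidney (106). Lymphocytes (17 genes) and muscle (24) broke it least often. With the animal as replicate block, and without the lymphocyte library, 7 genes were lower than every label left. In the same libraries without the block there were 5, and without the rumen library of the first male there were 7.

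Genes lower in rumen were low but seldom silent. None of the 158 was at 0 in all 4 rumen libraries. Their median rumen level was 1.11 FPKM, with 70 under 1 FPKM and 7 at 10 FPKM or more, the highest at 73.9. Rumen was the lowest of the 15 labels for 41 of them. For the others the lowest label was lymphocytes (43 genes), the lactating mammary gland (21), muscle (21), liver (11), frontal cortex (7), heart (6) or another. The highest label was kidney for 25, lymphocytes for 21, liver for 20 and frontal cortex for 13. The number of lower genes was 327 when only the 10 tissues of all 4 animals entered the fit.

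The largest fall without overlap was that of ENSBTAG00000044126, with 1.22, 0.689, 1.14 and 1.93 FPKM in rumen against 4.69 to 69.5 in the other 43 libraries, a difference of -3.43 ± 0.20 (SE, limma adjusted p = 3.74e-17). It was lower than all 14 labels. Its highest label was muscle, at 61.2 FPKM, and its lowest uterus, at 4.90. The second, ENSBTAG00000002688, had 11.02, 8.48, 7.14 and 6.67 FPKM in rumen, 14.8 in the lactating mammary gland and 1747 in kidney, a difference of -3.34 ± 0.20 (limma adjusted p = 3.20e-17). No rumen library overlapped any other library for either gene, as the choice required.

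The 15 largest falls without overlap had differences of -3.43 to -2.13, each with a limma adjusted p of 1.29e-12 or lower, and rumen means of 0.253 to 11.9 FPKM. They were chosen by call, size and lack of overlap, so these p-values are no separate support. Of the 15, 9 were lower in rumen than in at least 13 labels. For 10 of them the highest label exceeded 100 FPKM. Over all 15 the highest label was kidney or liver for 3 genes each and muscle for 2. The eighth had 0.194, 0.157, 0.387 and 0.272 FPKM in rumen and 158 in muscle, and the fifth had 1.37, 1.24, 1.14 and 0.617 in rumen and 437 in the lactating mammary gland. The thirteenth, at 6.63, 5.54, 6.05 and 5.24 FPKM in rumen, had 190.7 in liver and 16.4 in heart, its lowest label, and was also lower than all 14 labels.

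**Figure D4:**
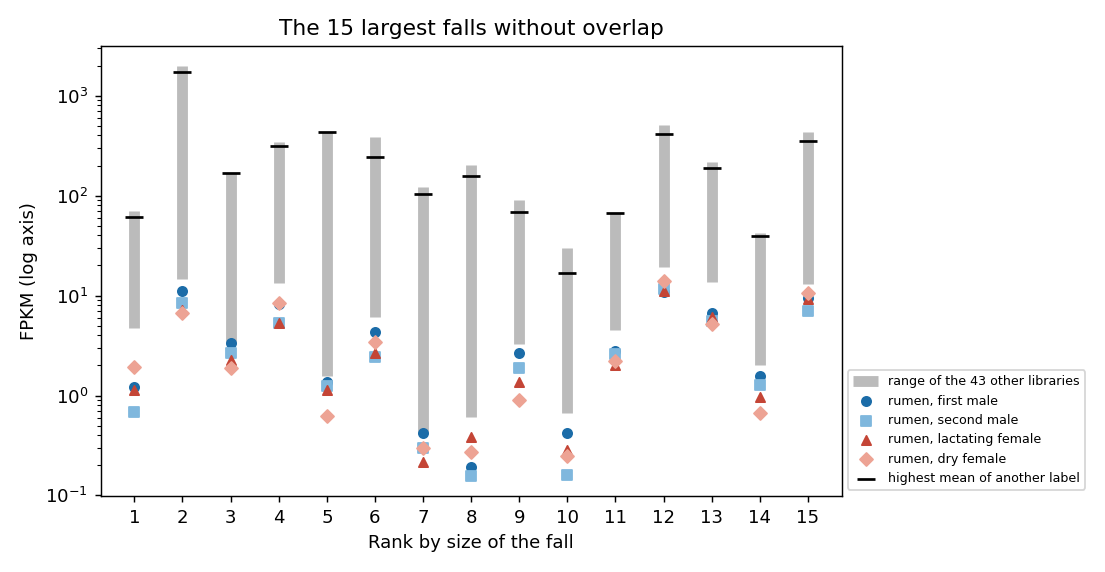
FPKM (log axis) of the 15 genes with the largest falls in rumen without overlap, with 1 point for each rumen library, a grey bar for the range of the 43 other libraries and a black dash for the highest mean of another label. All points lie under the bars, and for most genes the bar starts close above the rumen points.

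A wider set of genes was listed at 0 in all 4 rumen libraries, 7363 identifiers, of which 4042 were at 0 in all 47 libraries. Among them, 729 reached a mean of at least 1 FPKM in some other label, and 30 reached 100 FPKM. Frontal cortex was the highest label for 216 of the 729, ileum for 80, lymphocytes for 71 and kidney for 69. Frontal cortex also had the most genes at least 4 times above all remaining labels with rumen left out, 989. Ileum had 235 such genes, kidney 210 and lymphocytes 151. A listed 0 can also be a failed estimate. Conversely, 93 genes reached a mean of 1 FPKM in rumen and in no other label, and 11 genes reached it in all 14 other labels but not in rumen.

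The 4 rumen libraries resembled each other closely. Across the 16634 genes, which are not independent replicates, Spearman correlations ran from 0.976 (the first male with the dry female) to 0.985 (the females with each other), while the rumen mean correlated best with the dry mammary gland (0.850) and least with frontal cortex (0.620). Differences of 2-fold or more on the log2(FPKM + 1) scale were seen for 194 genes between the females, 466 between the males and 711 between the first male and the dry female. The first male and the lactating female differed in 477 genes, and the second male differed in 309 from the lactating and in 370 from the dry female, fewer than from the first male. Among 5761 genes with a rumen mean of at least 10 FPKM, the median SD was 0.168 on the log2 scale. Of the 10 tissues with 4 libraries, frontal cortex had a smaller median (0.159) and ileum the largest (0.312). In rumen 70 of the 5761 genes had an SD of at least 1. Ileum (485 of 7940), adipose tissue (130 of 6516) and spleen (104 of 7231) had more such genes. The other tissues had fewer, from 20 of 7299 in frontal cortex to 65 of 7619 in lung.

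The first male stood low for the enriched genes. It had the lowest of the 4 values for 105 of the 203 enriched genes, against 36 for the lactating female, 35 for the second male and 27 for the dry female. The median deviation of the 203 genes from their rumen mean was -0.18 in the first male, 0.12 in the second male, 0.02 in the lactating female and 0.08 in the dry female (log2). Over all 12020 genes with a rumen mean of at least 1 FPKM, the first male was instead the highest, at 0.08, followed by 0.05, -0.06 and -0.09. For 17 of the 25 leading enriched genes it was the lowest library. The ratio of the highest to the lowest rumen library over these 25 had a median of 1.64 and reached 3.45. Without this library 638 genes were called higher, and 617 of them were among the 629.

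Genes that mark other tissues moved between the rumen libraries. Such genes were taken for each of the 14 other labels, without use of the rumen libraries, as those at least 4 times above the remaining 13 labels, and those with a rumen mean of at least 1 FPKM were followed. The widest range was seen for 17 genes of the lactating mammary gland, whose median deviations were -0.46 in the first male, -0.68 in the second male, 0.23 in the lactating female and 0.80 in the dry female. Next came 33 adipose genes, at 0.58, -0.07, -0.22 and -0.40, then 20 uterus genes, at 0.03, -0.30, -0.09 and 0.51, and 49 spleen genes, at 0.25, 0.24, -0.18 and -0.34. The groups of the other 10 labels stayed within a range of 0.364. The part of these groups in the differences between animals and sexes was not tested.

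**Figure D5:**
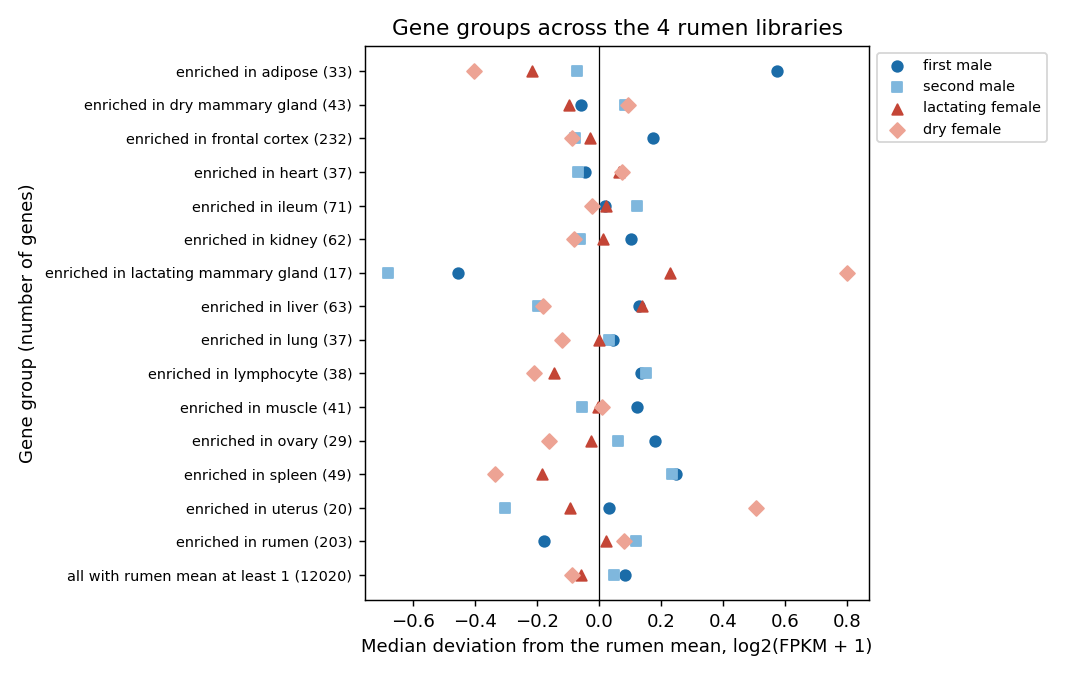
Median deviation of gene groups from the rumen mean, in log2(FPKM + 1), for each rumen library. Groups are genes enriched in 1 other label and at 1 FPKM or more in rumen, the 203 rumen-enriched genes and all 12020 genes at 1 FPKM or more, with their number in brackets. The first male is highest for adipose genes (0.58) and lowest for rumen-enriched genes (-0.18), and the dry female is highest for genes of the lactating mammary gland (0.80) and uterus (0.51).

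The genes with the largest spread were of several kinds. Of the 10 with the largest SD, 4 had the lactating mammary gland as their highest label. The most abundant of these 4 stood at 157804 FPKM there. In rumen the 4 genes had 29.6 to 39.7 FPKM in the lactating female and 19.2 to 26.3 in the dry female, against 0 to 0.0812 in the males. These values came to 0.0252% to 0.0274% and 0.0167% to 0.0176% of the level in the lactating gland. Genes restricted to liver (29 genes at 1000 FPKM or more and 100 times every other label) stood in rumen at 0.0242%, 0.00869%, 0.0517% and 0.00962% of their liver level. For genes chosen in the same way, 12 from muscle stood at 0.0197%, 0.0112%, 0.0172% and 0.0166%, and 4 from heart at 0.0159%, 0.00979%, 0.00956% and 0.0151%. The 5 from frontal cortex stood at 0.0844%, 0.0189%, 0.0369% and 0.0331%, and 6 from kidney at 0, 0.0218%, 0.0272% and 0.0251%. The lactating female was highest for the liver and kidney genes and the first male for the muscle, heart and frontal cortex genes. What these amounts contribute to the spread was not tested.

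The largest SD of all, 3.72, belonged to an enriched gene with 299 FPKM in the first male, 217 in the second male and 266 in the dry female, but 0.504 in the lactating female. Heart was its next label, at 31.1 FPKM. The low value was not limited to rumen, since its median was 0.229 FPKM over the 13 other libraries of the lactating female and of lymphocytes and 32.3 over the 30 other libraries of the remaining animals. Its difference from the other labels was 2.79 ± 1.30 (SE, limma adjusted p = 0.0565) and was not called. Another enriched gene, the ninth by SD, had 40.8, 1854, 490 and 1159 FPKM, with the first male far under the rest, and the eighth, also enriched, had 128, 20.04, 93.5 and 1.93. The tenth had 13.5 FPKM in the first male and 352 to 366 in the other 3 animals. At the steady end, the 5 genes with the smallest SD, 0.0054 to 0.017, had rumen means between 11.3 and 187 FPKM. The steadiest stood at 21.2, 21.1, 21.1 and 21.3 FPKM.

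Males and females were compared within rumen on the 40 libraries of the 10 tissues with 4 libraries each. All 40 come from the same 4 animals, but the fit took them as independent, with 1 estimate of spread over all tissues. Libraries of the same animal deviated together, so fewer independent values stand behind this spread and its p-values than the fit assumes. Of 16503 genes, 34 (0.206%) were higher in males and 27 (0.164%) higher in females at a limma adjusted p under 0.05. At an unadjusted p under 0.05 there were 1301 and 256. The males also stood higher over all 12020 genes with a rumen mean of at least 1 FPKM. Median deviations there were 0.08 and 0.05 in the males and -0.06 and -0.09 in the females. The part of this shift in the counts was not tested. After quantile normalization 16 and 43 genes were called at the adjusted p, in place of 34 and 27. In the females' direction 22 of 27 differences were at least 2-fold, and in the males' 15 of 34. Of the 34, 7 were rumen-enriched, and of the 27, 5. The counts depended on single libraries: without the first male there were 55 and 35, without the second male 130 and 77, without the lactating female 25 and 48, and without the dry female 7 and 19. Of these, 15 and 18, 17 and 22, 13 and 24, and 6 and 11 were among the calls from all libraries. Each of these fits leaves 1 rumen library in a sex, which is assumed to vary like the other groups.

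The largest male excess belonged to a gene with 16.3 and 18.8 FPKM in the males and listed at 0 in both females, whose highest label was spleen at 843 FPKM (male minus female difference 4.21, limma adjusted p = 2.06e-07). The second had 358 and 345 FPKM in the males and 50.0 and 38.4 in the females. It was itself higher in rumen than in all 14 labels, with ileum next at 73.8 FPKM, and its sex difference was 2.98 (limma adjusted p = 0.00154). That call was lost with a pseudocount of 0.1, at a limma adjusted p of 0.192. On the female side, 1 gene had 243 and 177 FPKM in the males and 1187 and 1169 in the females (difference -2.50, limma adjusted p = 9.09e-08), with heart as its highest label. Another had 57.2 and 85.3 against 294 and 799 FPKM, with muscle as its highest label at 4063 FPKM, and the next had 42.2 and 51.9 against 172 and 429 FPKM, with uterus highest at 1391. The last of these lost its call without the dry female, at a limma adjusted p of 0.309. With 2 animals for each sex, sex cannot be told apart from other differences between these animals, the sampled state of the mammary gland included.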

How the data were processed

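Total RNA was made into TruSeq libraries and read from both ends, per the labels' protocols. Trimmomatic 0.39, STAR, Cufflinks and the cattle build UMD3.1 are named in the submitters' processing notes, while settings and gene annotation are not given in the sources used here. In all, the authors deposited 1 table of FPKM values with 24616 Ensembl gene identifiers and 51 columns. 47 columns matched a sample by title (1 muscle column differs from its title by a letter) and 4 were not used. The available gene table is for assembly ARS-UCD2.0 and its Ensembl column is empty, so 0 identifiers were paired with names. The lists of pathway and marker genes fixed by symbol could not be applied, and no sequence is shown.

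Values were taken as log2(FPKM + 1), which understates changes of low genes. The fits used limma 3.58.1 (R 4.3.3) with a mean-dependent prior variance. P-values were adjusted by Benjamini-Hochberg per contrast, and the procedure was checked on simulated data. Without counts no interval or detection floor could be given. Libraries of the same animal come from the same individual and deviated together, so the animal was tried as replicate block. For rumen against other tissues, the median correlation of deviations across genes was 0.16 for the same animal and -0.06 for different animals. Deviations from a tissue mean cancel out over its libraries, so the second value is tied to the first. The rules name the 25 largest rises and 15 largest falls without overlap, the 20 most abundant genes, the 10 largest and 5 smallest SDs, and the 5 largest sex differences per direction. At most 2 identifiers per direction are printed. The members, lists and rules were chosen with earlier results of these data known. Tables and plots were made in Python 3.11.15 with pandas 2.3.3, numpy 2.4.6 and matplotlib 3.10.9.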

Additional observations from a re-analysis of the deposited data

Results flagged for a closer look

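In 84 sets of 4 rumen values (genes described by rank and measures of the libraries), 1 library stood apart by Dixon's ratio of the gap to the range in 3, a limit that chance passes in about 1 of 20 sets not chosen for their spread. The gene of rank 22 by rise had a ratio of 0.843, with 920.1 FPKM in the lactating female and 1092 to 1128 in the others. The gene with the largest SD had 0.940, with the lactating female at 0.504 FPKM, and the gene with the tenth largest SD had 0.988, with the first male at 13.5 FPKM. These last 2 were listed for their spread over the same 4 values, so that rate does not apply to them.

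For 9 of the 10 genes with the largest sex differences in rumen, the male minus female difference in rumen departed from the mean difference of the 9 other tissues (limma adjusted p under 0.05 for the interaction). On the log2 scale this departure was 4.69, 2.89, 2.70 and 1.93 for the genes of rank 1, 2, 3 and 5 in the male direction. It was -2.87, -2.62, -3.03, -2.08 and -1.74 for ranks 1 to 5 in the female direction. The genes were chosen for their difference in rumen, which is part of the departure, so their number is no independent evidence of one. The gene of rank 3 in the male direction had 4.24, 8.58, 0.145 and 0.0394 FPKM in rumen and at most 0.222 elsewhere. It passed the filter on low values only through the rumen libraries of the males. Over all 16503 genes, 49 (0.297%) had such a departure. Each sex is represented by the same 2 animals in all tissues.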

How the results depend on the processing

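Counts moved by over 1.5 times in these settings. Genes higher than the mean of the other labels were 629 and lower 158. They were 974 and 705 with a pseudocount of 0.1, and 1518 and 1948 at a minimum difference of 1. The lower genes were 252 without the lymphocyte library and all libraries of the lactating female, and 327 in the 10 shared tissues. Genes lower than each of 14 labels, 3 in all, were 15 with a pseudocount of 0.1, 10 after quantile normalization and 6 after rescaling. Settings that remove labels leave fewer to be lower than: they gave 5 without the lymphocyte library, 7 with the animal as replicate block and without that library, and 23 without that library and the lactating female. The replicate block gave 609 higher and 180 lower genes and 295 above every label left, none moved by over 1.5 times, and was not run for other counts. Rumen-enriched genes, 203, were 314 at 2 times every other label. Sex counts, 34 and 27, were 20 higher in males with a pseudocount of 0.1, and 16 and 43 after quantile normalization. The cause of these moves was not tested.

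Without each rumen library in turn, higher genes ran from 625 to 642 and lower from 143 to 195, those above every label from 280 to 294 and below every label from 3 to 7, enriched genes from 200 to 206, male-higher genes from 7 to 130, female-higher genes from 19 to 77, and the median SD, an alternative chosen after seeing the data, from 0.154 to 0.166. Rescaling moved the median difference of all genes by -0.13 and quantile normalization by 0.09. Under quantile normalization the abundant genes of rank 16 and 18 had differences of -0.14 and -0.33 in place of 0.85 and 0.79. Of the 25 leading higher and 15 leading lower genes, 1 lost its call in 1 setting, the fifteenth lower gene at -1.87 after quantile normalization. Of the 10 genes with the largest sex differences, the third in the male direction was tested in 6 settings only. Without either male it did not pass the filter on low values. Of these 10 genes, 4 lost their call in some setting. The fourth in the male direction lost it in all 8, with a limma adjusted p of up to 0.296, the second and the fifth in 2 each, up to 0.192 and 0.102, and the third in the female direction in 2, up to 0.309. No count between tissues and neither sex count changed without the filter on low values by over 1.5 times. Without read counts, what depth limits cannot be given.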
